A study of Mus musculus with 8 samples.

Results

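The genes described here are receptor and response genes of interleukin-4 (IL-4) and interleukin-13 (IL-13), 10 of the 53247 genes measured: Il4ra, Il13ra1, Chil3, Retnla, Mgl2, Egr2, Il4i1, Ccl17, Ccl22 and Ccl24. The members were chosen by gene symbol, and each symbol had 1 row in the table. They were measured by RNA-Seq in tumor-associated macrophages (TAMs) of 4 WT and 4 miR-21-/- samples (labelled miR-21 null), both of strain C57/BL6. Lewis lung carcinoma (LLC) cells, a mouse lung cancer line, were implanted s.c. in mice of 8 weeks in both genotypes. Tumors were taken on day 14, from mice given as 10 weeks old, and TAMs were sorted for F4/80, MHC II, CD11b and CD45. The null allele is carried by the host mice, so every host cell of the tumor lacked miR-21 and not only the TAMs. The labels call the samples biological replicates but do not say how many mice each holds. The title of miR-21-/- replicate 1 names 2 numbers ("1-2"), and it was counted as 1 sample. Replicate numbers are those of the labels' descriptions, and the titles of the other miR-21-/- samples carry other numbers or a letter.

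IL-4 and IL-13 are cytokines of type 2 immunity. Both signal through IL-4Rα, encoded by Il4ra, which pairs either with the common γ chain, encoded by Il2rg, or with IL-13Rα1, encoded by Il13ra1. Receptor-bound Janus kinases then phosphorylate STAT6, a transcription factor that switches on the genes of what is called alternative activation in mouse macrophages. Chil3, Retnla, Mgl2, Egr2 and the chemokine genes Ccl17, Ccl22 and Ccl24 are among those that IL-4 is known to induce.

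The microRNA deleted in the null mice comes from mouse chr11:86584120-86584141 on the minus strand (GRCm38). Its mature sequence is shown because microRNA targets are usually sought among 3′ UTRs that match the seed; bases 2 to 8, the seed, are in capitals (sequence from RefSeq).
mmu-miR-21a-5p: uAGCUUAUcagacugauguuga
Among the annotated 3′ UTRs of the 10 members, 1 held a match of 7 or 8 bases to this seed. It lies in the 3′ UTR of Ccl22, at bases 930 to 937 of 1813, within chr8:94750805-94750834 on the plus strand, with the 8 matching bases in capitals.
Ccl22 site: tgtttggtattATAAGCTAtagttatattt
Such a site of 8 bases was present in 257 (2.24%) of the 11449 genes that were tested and have an annotated 3′ UTR. Counting matches of 7 bases too, 12.4% of these genes held at least 1. None was found in the 3′ UTR of Il4ra, which is 2420 bases long.

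The promoters bear on the members as a group, since STAT6 binds the palindrome TTCNNNNGAA and other STAT proteins prefer TTCNNNGAA; each reads the same on both strands. Windows from 250 bases before to 50 bases after the RefSeq start (GRCm38) were available for 9 members, all but Ccl24. TTCNNNNGAA was found in the windows of Retnla and Ccl17, and TTCNNNGAA in those of Chil3 and Ccl17. Of all 27025 genes with such a window, 8.01% held TTCNNNNGAA and 9.55% held TTCNNNGAA (6.95% and 8.30% of the 32851 windows). The 2 members with the STAT6-type motif were those with the lowest CPM, and a link between motif and level was not tested. Sites outside the windows were not searched. The stretches with a match are shown with the motif in capitals.
Retnla, chr16:48842434-48842503, plus strand, motif 145 bases before the start: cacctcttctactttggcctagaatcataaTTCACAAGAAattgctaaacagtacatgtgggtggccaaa
Ccl17, chr8:94810269-94810338, plus strand, motif 154 bases before the start: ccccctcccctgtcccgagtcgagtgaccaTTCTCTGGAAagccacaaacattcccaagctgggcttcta
Ccl17, chr8:94810324-94810392, plus strand, motif 99 bases before the start: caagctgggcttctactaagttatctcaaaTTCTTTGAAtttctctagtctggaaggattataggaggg
Chil3, chr3:106167698-106167766, minus strand, motif 172 bases before the start: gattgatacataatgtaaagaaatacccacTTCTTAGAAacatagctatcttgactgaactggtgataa
A match describes these letters and does not show that a factor binds there.

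Values are CPM, the reads of a gene per 1e+06 reads, and 1 read was worth 0.0300 to 0.0495 CPM at depths of 20.2 to 33.4 in units of 1e+06 reads. WT replicate 3 was the shallowest sample. Differences were tested with limma on log2(CPM + 1) over 13850 genes, those whose mean reached 1 per 1e+06 of a column's total. The threshold was a fold change over 1.5 with an adjusted p (Benjamini-Hochberg) of 0.005 or less. Of all tested genes 7.12% passed, 2.89% as higher and 4.23% as lower in miR-21-/- TAMs, and 35.1% had groups that did not overlap. Which direction held more genes depended on the scaling. Quantile normalization gave 491 higher and 337 lower, and the median of ratios 528 and 348. The median log2 fold change of all tested genes was -0.10, and the fold changes below are to be read against it. Mir21a itself was listed at 0.0001 CPM in all 8 samples, so these mRNA libraries do not check the genotype labels. All 11 macrophage markers looked at were measured, and their summed level was 13705 to 16876 CPM in WT against 11805 to 17226 CPM in miR-21-/- samples. Most of each sum came from the MHC II genes Cd74, H2-Aa and H2-Ab1, so the sums say little of the other markers. Among the 11 markers Fcgr1 rose, from 273 ± 35.4 to 458 ± 45.8 CPM (SD, n = 4 each). Adgre1 (564 ± 19.4 and 433 ± 27.5 CPM) and Csf1r (1311 ± 160 and 939 ± 79.1 CPM) had lower values without overlap and did not pass.

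Of the 8 members that passed the filter, 1 rose in miR-21-/- TAMs and none fell. This member was Il4ra, the shared receptor chain. It was also the 1 member whose groups did not overlap, 12.5% of the 8, beside 35.1% of all tested genes. The other 7 overlapped between genotypes and did not pass, with 4 positive and 3 negative log2 fold changes. The median log2 fold change of the 8 was 0.17, and 0.0056 without WT replicate 4 and 0.38 without WT replicate 3. The share that passed, 12.5%, rests on 1 gene and stands beside a background of 7.12%. At an unadjusted p under 0.05 limma had 3 of the 8, Il4ra and Egr2 higher and Mgl2 lower, beside 46.4% of all tested genes (12.3% higher and 34.1% lower). Retnla and Ccl17 lay below the filter.

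**Figure D1:**
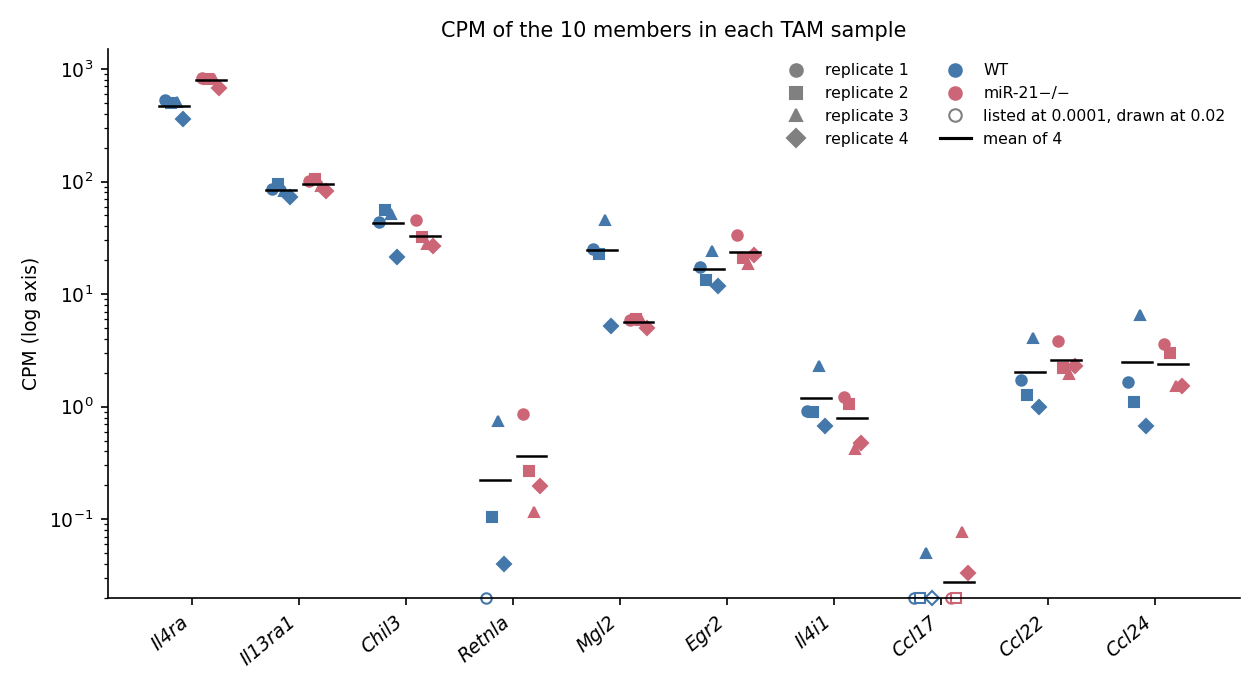
CPM of the 10 members on a log axis, with 1 symbol per TAM sample (shape for the replicate, blue for WT, red for miR-21-/-) and a black bar for the mean of 4; open symbols are values listed at 0.0001. The miR-21-/- samples of Il4ra, at 686 to 839 CPM, all lie above the WT samples, at 362 to 527 CPM, while the other members overlap.

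Levels of different members were compared per length of annotated exons. In WT TAMs, Il4ra was the highest, at 78.7 ± 12.4 CPM per kb (SD, n = 4). Chil3 followed at 26.5 ± 9.44 and Il13ra1 at 22.7 ± 2.35 CPM per kb, a difference within the SD of Chil3. Mgl2 stood at 11.8 ± 7.90 and Egr2 at 4.93 ± 1.65 CPM per kb, again a difference within the larger SD. Ccl24 (1.94 ± 2.12), Ccl22 (0.873 ± 0.610), Retnla (0.370 ± 0.584) and Il4i1 (0.293 ± 0.184 CPM per kb) differed each from the next of the 4 by less than the larger SD, and Ccl17 was lowest at 0.0243 ± 0.0481 CPM per kb. In miR-21-/- TAMs the order was the same except that Il13ra1 (25.5 ± 2.77) stood before Chil3 (20.2 ± 5.13) and Egr2 (7.01 ± 1.95) before Mgl2 (2.72 ± 0.211 CPM per kb).

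Of the 2 receptor genes, Il4ra rose and Il13ra1 did not pass the threshold. Il4ra (chr7:125552120-125579474, plus strand, GRCm38) had 527, 496, 505 and 362 CPM in WT samples 1 to 4, and 839, 823, 820 and 686 CPM in miR-21-/- samples 1 to 4. Every miR-21-/- sample was above every WT sample, and replicate 4 was the lowest of either genotype. The mean went from 473 ± 74.5 to 792 ± 71.4 CPM (SD, n = 4 each), a fold change of 1.69, or 0.75 on the log2 scale (95% interval 0.49 to 1.02, SE 0.12, limma adjusted p = 0.00119). It stayed between 0.63 and 0.82 when any 1 sample was left out and passed each time, with adjusted p up to 0.00481. With no filter on low values the adjusted p was 0.00868 and Il4ra did not pass. A gene on the other strand, Gm44876, shares exonic bases with Il4ra, and the strand setting of the counting is not given in the sources used here.

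Il13ra1 (chrX:36112110-36171259, plus strand), the chain that completes the receptor for IL-13, had 86.5, 94.5, 82.4 and 73.6 CPM in WT against 101, 105, 90.5 and 82.1 CPM in miR-21-/- samples. The groups overlapped, with 2 of the 4 miR-21-/- samples inside the WT range and 2 above it. The log2 fold change was 0.16 (95% interval -0.04 to 0.37, limma adjusted p = 0.195), or 0.10 without WT replicate 4 and 0.28 with the median of ratios as scaling, neither past the threshold. The ratio of Il4ra to Il13ra1 CPM within each sample, chosen after the values were seen, was 6.09, 5.25, 6.13 and 4.92 in WT and 8.35, 7.83, 9.06 and 8.35 in miR-21-/- samples. The ratio was higher in each miR-21-/- sample than in any WT sample, by 0.59 on the log2 scale. In a two-sided exact permutation test p was 0.0286, the smallest it allows, and 0.0857 after Benjamini-Hochberg adjustment over the 3 ratios compared.

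Il2rg, the common γ chain and no member itself, rose as well. It had 192, 179, 191 and 190 CPM in WT against 330, 306, 295 and 312 CPM in miR-21-/- samples. Its log2 fold change was 0.72 (SE 0.05, limma adjusted p = 1.63e-05). The ratio of Il4ra to Il2rg CPM was 2.74, 2.77, 2.65 and 1.91 in WT and 2.54, 2.69, 2.78 and 2.20 in miR-21-/- samples, so the groups overlapped (log2 difference 0.03, exact permutation p = 0.83). The lowest ratio of each genotype was that of replicate 4.

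The ligands and the rest of the pathway were taken from a list of 14 other genes of IL-4 and IL-13 signalling, of which 10 passed the filter. Il2rg and Socs1 rose, none fell, and 8 did not pass (2 of 10 past the threshold, beside 7.12% of all tested genes). At an unadjusted p under 0.05, limma had 4 of the 10 higher and 0 lower, beside 12.3% and 34.1% of all tested genes. The list's median log2 fold change was -0.02, against -0.10 for all tested genes. It turned positive without WT replicate 3 (0.0074), without WT replicate 4 (0.013), with no filter (0.010) and with the median of ratios (0.095). The median of all tested genes was -0.096, -0.11, -0.017 and 0.0015 in these settings. Socs1, a feedback inhibitor of Janus kinases that several cytokines induce, had 4.41, 4.12, 6.38 and 5.82 CPM in WT against 33.4, 27.0, 21.1 and 23.4 CPM in miR-21-/- samples. All miR-21-/- samples were at more than 3 times the highest WT sample, and the log2 fold change was 2.14 (SE 0.16, limma adjusted p = 1.66e-05).

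For the transcription factor and most of the kinases behind the receptor, the log2 fold changes were close to 0. Stat6 was at 243 ± 5.82 CPM in WT against 233 ± 6.19 CPM in miR-21-/- samples (SD, n = 4 each), where limma gave -0.06 on the log2 scale and an adjusted p of 0.340. Jak1, Jak3, Tyk2 and the phosphatase gene Ptpn6 had log2 fold changes of 0.01, -0.05, -0.05 and -0.05, none past the threshold. Jak2, named here after its values were seen, had a log2 fold change of 0.47 with a limma adjusted p of 3.48e-04, under the fold limit of 1.5. With the median of ratios as scaling, and with no fold limit, it passed as higher. The lowest of the list was Irs2, an adaptor of the receptor, at -0.14 (limma adjusted p = 0.292). Il4, Il13, Il13ra2 and Irs1 lay below the filter. Il4 had 0.0798 to 0.247 CPM in WT against 0.132 to 0.411 CPM in miR-21-/- samples, and Il13 at most 0.0900 CPM in any sample.

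**Figure D2:**
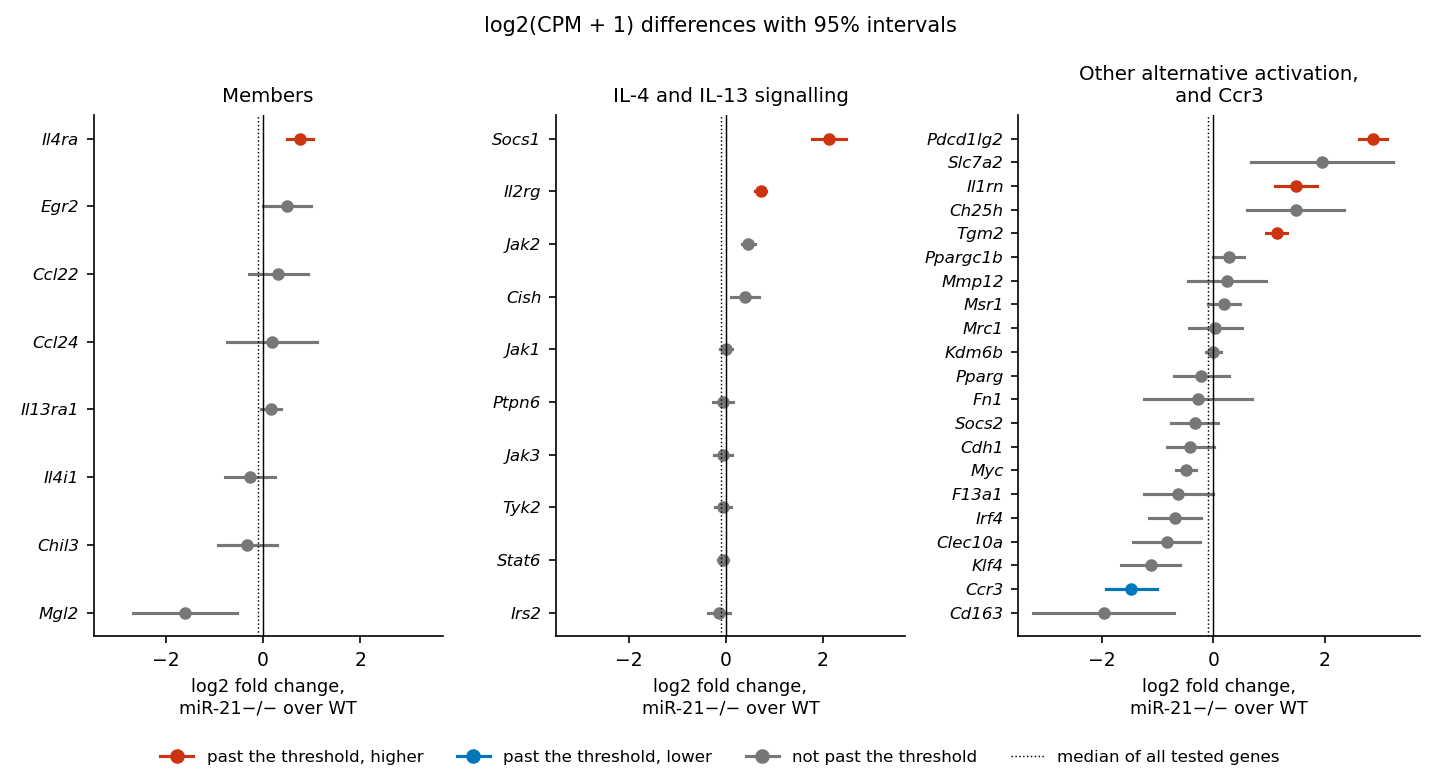
Log2 fold changes (miR-21-/- over WT, log2(CPM + 1) scale) with 95% intervals for the tested members, the IL-4 and IL-13 signalling genes, and the other alternative activation genes with the chemokine receptor Ccr3; the dotted line is the median of all tested genes, -0.10. Il4ra at 0.75, Il2rg at 0.72 and Socs1 at 2.14 lie to the right in red, while Stat6, Jak1, Jak3 and Tyk2 lie between -0.06 and 0.01.

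No other member passed the threshold in either direction, the response genes classically used to score alternative activation included. Chil3 (chr3:106147554-106167564, minus strand), which encodes the chitinase-like protein Ym1, had 43.5, 56.4, 51.4 and 21.5 CPM in WT against 45.1, 32.0, 28.0 and 26.9 CPM in miR-21-/- samples. WT replicate 4 was the lowest of all 8, and the other 3 WT samples spanned 43.5 to 56.4 CPM, with 1 miR-21-/- sample among them. Chil3 differed by -0.32 on the log2 scale (95% interval -0.93 to 0.28, limma adjusted p = 0.378). The difference was -0.62 without WT replicate 4 (limma adjusted p = 0.0174) and -0.17 without WT replicate 2, neither past the threshold. Chil4, a close paralog, was listed at 0.0001 CPM in 7 of 8 samples and had about 1 read in WT replicate 1. Reads that could be shared between them were not resolved here.

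Retnla (chr16:48842551-48844461, plus strand), which encodes the secreted protein RELMα, was close to the limit of detection. WT samples 1 to 4 held about 0, 3, 15 and 1 reads, and miR-21-/- samples about 23, 9, 3 and 6 reads. In CPM these were 0.0001, 0.104, 0.742 and 0.0399 in WT and 0.858, 0.270, 0.115 and 0.199 in miR-21-/- samples. The 0 reads of WT replicate 1 allow a level of up to 3 reads. A two-sided exact permutation test of the 4 against 4 samples gave p = 0.457, where 0.0286 is the smallest p it allows. No difference between the genotypes was detected.

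Mgl2 (chr11:70130329-70137550, plus strand), which encodes the lectin CD301b, had the largest negative difference of the members without passing the threshold. It had 25.4, 22.7, 45.5 and 5.16 CPM in WT against 5.90, 5.99, 5.88 and 5.04 CPM in miR-21-/- samples. The miR-21-/- samples lay within 1 CPM of each other, whereas 3 WT samples were at 22.7 to 45.5 CPM and WT replicate 4 fell inside the miR-21-/- range. This gave a log2 fold change of -1.62 (SE 0.48, limma adjusted p = 0.0253). Without WT replicate 4 it was -2.20 with a limma adjusted p of 8.94e-05, past the threshold, and in the fits without any other 1 sample Mgl2 did not pass. Clec10a, a close paralog, had 21.7, 32.8, 43.1 and 15.0 CPM in WT against 13.2, 17.9, 15.0 and 11.3 CPM in miR-21-/- samples, with a log2 fold change of -0.84 (limma adjusted p = 0.0356). The ratio of Mgl2 to Clec10a CPM, the last of the 3 ratios compared, was 0.815 ± 0.375 in WT and 0.405 ± 0.0542 in miR-21-/- samples (SD, n = 4 each; exact permutation p = 0.114, adjusted p = 0.171). Reads that both genes could share make either value uncertain.

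**Figure D3:**
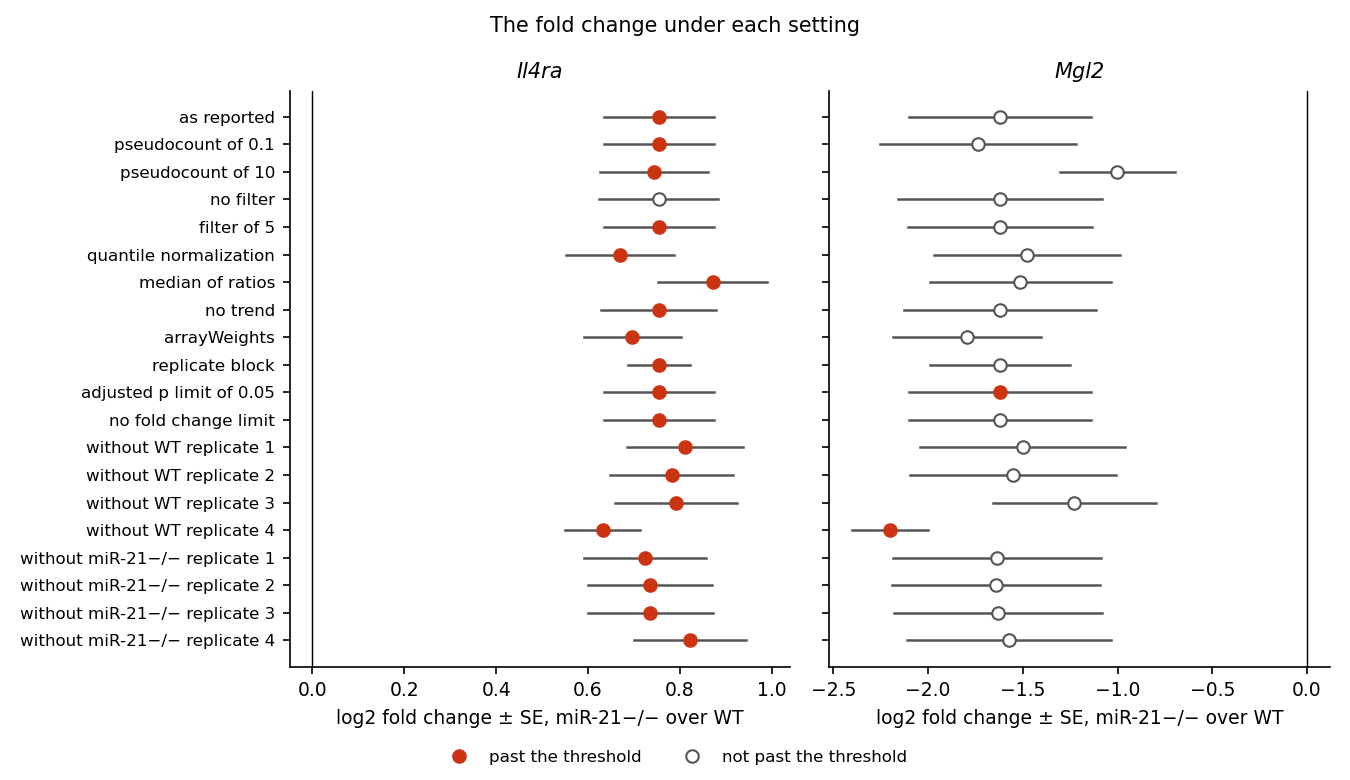
Log2 fold change ± SE (miR-21-/- over WT) of Il4ra and Mgl2 as reported and under each alternative setting or without each sample, filled where the gene was past the threshold. Il4ra was past it in every setting shown except with no filter, and Mgl2 in those without WT replicate 4 and with an adjusted p limit of 0.05.

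Egr2 (chr10:67535475-67542188, plus strand), a zinc-finger transcription factor induced early by IL-4, had 17.3, 13.5, 24.4 and 11.8 CPM in WT against 33.5, 20.8, 18.6 and 22.5 CPM in miR-21-/- samples. The highest WT sample lay above 3 of the miR-21-/- samples. The log2 fold change was 0.50 (95% interval 0.01 to 1.00), with an unadjusted p of 0.0478 and a limma adjusted p of 0.104. It was 0.69 without WT replicate 3 and 0.33 without miR-21-/- replicate 1, and passed in neither. Il4i1 (chr7:44816387-44840809, plus strand), which encodes a secreted amino acid oxidase, was at 0.910, 0.901, 2.31 and 0.668 CPM in WT against 1.23, 1.05, 0.422 and 0.477 CPM in miR-21-/- samples. Its groups overlapped, and the log2 fold change was -0.27 (95% interval -0.78 to 0.25, limma adjusted p = 0.395), or -0.05 without WT replicate 3. Il4i1 shares exonic bases with Nup62 on its own strand and with Atf5 and Tbc1d17 on the other, so its reads are uncertain.

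The 3 chemokine members were low in both genotypes. Ccl22 (chr8:94745590-94751699, plus strand) and Ccl17 (chr8:94810453-94812036, plus strand), neighbours on the chromosome, encode ligands of CCR4, a receptor of helper and regulatory T cells. Ccl22, the member with the seed site shown above, had 1.74, 1.28, 4.11 and 0.996 CPM in WT against 3.81, 2.22, 1.96 and 2.32 CPM in miR-21-/- samples, or 25 to 102 reads a sample. WT replicate 3 was above all miR-21-/- samples and the other 3 WT samples were below all of them. On the log2 scale the difference was 0.31 (95% interval -0.29 to 0.92, limma adjusted p = 0.399). Without WT replicate 3 it was 0.60 with a limma adjusted p of 0.0407, still not past the threshold.

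Ccl17 had about 0, 0, 1 and 0 reads in WT and 0, 0, 2 and 1 reads in miR-21-/- samples. Both groups were at or under 3 reads per library, so no fold change or direction is read from them. The two-sided exact permutation test gave p = 0.714. Ccl24 (chr5:135569937-135573049, minus strand), which encodes eotaxin-2, a ligand of the eosinophil receptor CCR3, had 1.67, 1.11, 6.58 and 0.677 CPM in WT against 3.58, 2.97, 1.54 and 1.52 CPM in miR-21-/- samples. WT samples spanned the whole range, from the lowest to the highest of all 8. The mean CPM was lower in miR-21-/- samples, at 2.40 ± 1.04 against 2.51 ± 2.74 in WT (SD, n = 4 each). On the log2 scale the difference was positive, 0.17 (SE 0.42, limma adjusted p = 0.769), and without WT replicate 4 its sign turned, to -0.09. Without WT replicate 3 it was 0.64, not past the threshold.

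Of the receptors of these chemokines, Ccr3 passed the filter and fell. It had 23.0, 17.3, 11.1 and 15.0 CPM in WT against 3.55, 6.24, 5.49 and 5.72 CPM in miR-21-/- samples, with no overlap. Its log2 fold change was -1.47 (SE 0.21, limma adjusted p = 6.57e-04), and with no filter the adjusted p was 0.00572, not past the threshold. Ccr3 is also among 5 eosinophil markers, whose summed level was 12.7 to 24.9 CPM in WT against 4.78 to 7.08 CPM in miR-21-/- samples. Most of that sum was Ccr3 itself in each sample, so it largely repeats the Ccr3 values. Of the 5 markers, 2 passed the filter, Ccr3 and Siglecf, and both fell, beside 4.23% of all tested genes. Il5ra lay below the filter. So did the granule protein genes Epx, at 0.0001 CPM in all 8 samples, and Prg2, at or under 3 reads in each. In bulk samples, fewer cells of a type and less RNA per cell cannot be told apart. Ccr4 was at 0.0496 to 0.312 CPM in WT against 0.0662 to 0.187 CPM in miR-21-/- samples (two-sided exact permutation test, p = 0.143), and Ackr2, a scavenging receptor, at 0.192 CPM or less (p = 0.257 in the same exact test).

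Among 23 other genes used as markers of alternative activation, 20 passed the filter, 3 rose and none fell (3 of 20 past the threshold, beside 7.12% of all tested genes). Ear11 was not analysed here, and Chil4 and Alox15 lay below the filter. At an unadjusted p under 0.05, limma had 5 of the 20 higher and 6 lower, beside 12.3% and 34.1% of all tested genes. The list's median log2 fold change was -0.11, against -0.10 for all tested genes, and it turned positive without WT replicate 3 (0.046), with a filter of 5 CPM (0.036) and with the median of ratios (0.0065). Pdcd1lg2, which encodes the checkpoint ligand PD-L2, had 6.69, 5.51, 8.06 and 7.13 CPM in WT against 58.6, 54.7, 47.6 and 61.8 CPM in miR-21-/- samples. With a log2 fold change of 2.86 it headed the list, and the groups did not overlap.

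Tgm2, which encodes transglutaminase 2, and Il1rn, which encodes the antagonist of the interleukin-1 receptor, were the other genes of the list that rose. Tgm2 went from 454 ± 38.8 to 1001 ± 89.2 CPM and Il1rn from 170 ± 40.5 to 471 ± 77.3 CPM (SD, n = 4 each), with limma adjusted p of 1.73e-05 and 2.01e-04. The lowest of the list was Cd163, a haemoglobin scavenger receptor, at 68.4, 102, 115 and 15.6 CPM in WT against 12.5, 26.5, 17.2 and 7.67 CPM in miR-21-/- samples. Its log2 fold change of -1.97 (limma adjusted p = 0.0222) did not pass. Without WT replicate 4 the list had 3 genes higher and 4 lower, beside 387 and 614 of all tested genes. The 4 lower were Clec10a, Irf4, F13a1 and Cd163. Without WT replicate 3 the list had 4 higher, with Slc7a2 added, and 0 lower, beside 352 and 395. With an adjusted p limit of 0.05 it had 5 higher, Slc7a2 and Ch25h among them, and 4 lower, beside 512 and 901. Mrc1, the mannose receptor, was at 2555 ± 719 CPM in WT against 2564 ± 448 CPM in miR-21-/- samples (limma adjusted p = 0.910).

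Within a genotype, some samples were high or low for most members. WT replicate 4 was the lowest WT sample for all 8 tested members, whereas over all tested genes it was the lowest for 32.8%. WT replicate 3 was the highest WT sample for 5 of the 8 (Mgl2, Egr2, Il4i1, Ccl22 and Ccl24), and for 32.2% of all tested genes. Among the miR-21-/- samples, replicate 1 was the highest for 6 of the 8 (Il4ra, Chil3, Egr2, Il4i1, Ccl22 and Ccl24), and for 23.7% of all tested genes. The widest deviation from a genotype mean was that of Mgl2 in WT replicate 4, -1.74 on the log2 scale. WT replicate 3 deviated by 1.18 for Mgl2 and by 1.38 for Ccl24. In the miR-21-/- samples the lowest deviation of Mgl2 was -0.15.

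**Figure D4:**
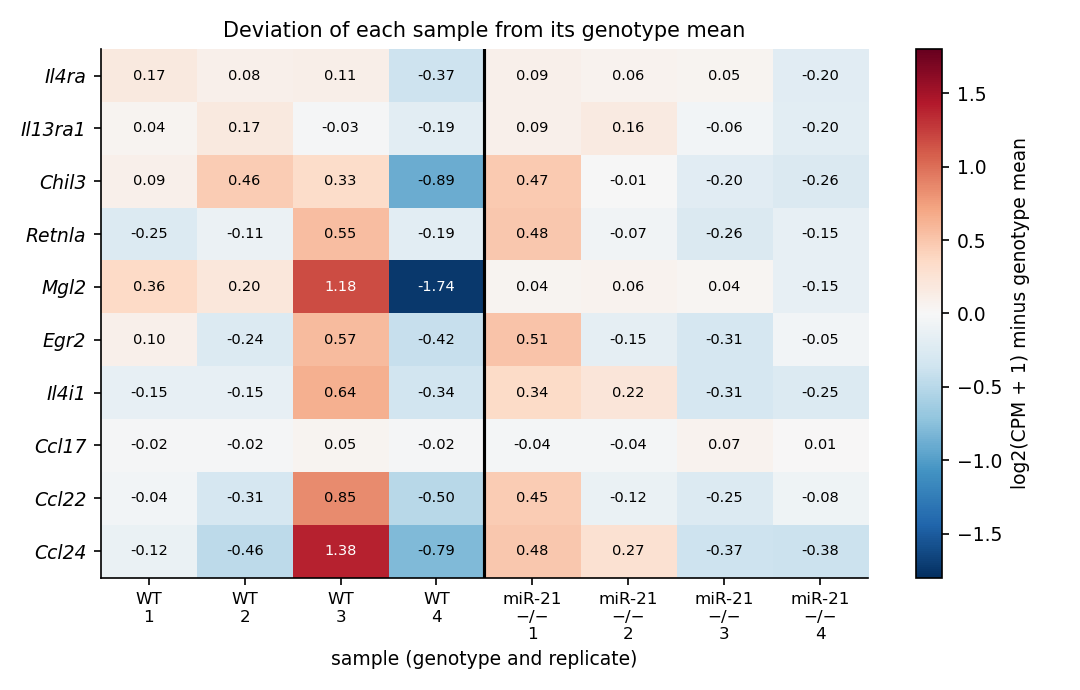
Log2(CPM + 1) of each member in each sample minus the mean of its genotype, for 4 WT and 4 miR-21-/- samples; red is above and blue below the mean. WT replicate 3 is red for the chemokines and Mgl2 (1.18), WT replicate 4 is blue for every tested member (Mgl2 -1.74), and miR-21-/- replicate 1 is red for most members.

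Some markers of other cells differed between the genotypes as well. The summed level of 4 fibroblast markers was 54.9 to 118 CPM in WT against 9.36 to 38.3 CPM in miR-21-/- samples. Of these markers Col1a1, Col3a1 and Pdgfra were lower (3 of 4 tested), beside 4.23% of all tested genes. The summed level of 4 B cell markers was 45.5 to 82.3 and 11.3 to 17.8 CPM, and Ighm, the 1 marker tested, was lower. That of 7 neutrophil markers was 769 to 1168 and 574 to 747 CPM, with none of the 6 tested past the threshold. Those of 9 dendritic cell markers, 33.3 to 50.3 and 30.5 to 51.1 CPM with Dpp4 lower, overlapped, as did those of 7 T cell and ILC2 markers, 25.5 to 44.9 and 14.2 to 38.2 CPM, of which Cd4 fell. In these lists Clec9a (2.30 to 2.74 and 4.18 to 14.0 CPM) and Cd8a (1.32 to 2.19 and 2.80 to 11.6 CPM) had higher values without overlap and did not pass (limma adjusted p = 0.00532 and 0.00804). The summed level of 6 basophil and mast cell markers was 3.58 to 4.42 and 1.98 to 3.27 CPM, with none past the threshold and Ms4a2 at or under 3 reads in each sample. The sums of the monocyte, NK cell, alveolar macrophage, epithelial and tumor cell, and endothelial cell lists overlapped, and none of their markers passed the threshold. The part of any of these cells, eosinophils included, in the members' values was not tested.

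By their pattern over the 8 samples, the tested genes most like Il4ra, the member past the threshold, were Ralgps2, Celf4 and Sgms2. They differed from it by a root mean square of 0.08, 0.09 and 0.10 on the log2 scale, each centred on its WT mean. Sgms2, which encodes a sphingomyelin synthase, went from 36.7 ± 5.25 to 61.3 ± 7.99 CPM (SD, n = 4 each), with a log2 fold change at 0.73. Of all tested genes, 2.40% had a larger log2 fold change than Il4ra.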

How the data were processed

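RNA from sorted TAMs of 4 WT and 4 miR-21-/- samples was made into mRNA libraries. The authors deposited CPM values for 53247 genes, each raised by 0.0001. STAR, Partek 7.0 and mm10 are named in the submitters' processing notes; the counting and strand settings are not given in the sources used here. Coordinates and exon lengths were taken from GENCODE vM21 (GRCm38), where 97.1% of matched genes had the table's start. Between 72.7% and 73.7% of values up to 20 reads fell on whole reads (tolerance 0.02), so reads were not recovered and no count test was run. All 37 mitochondrial genes were listed at 0.0001, so that value can also mean a gene that was not counted.

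From these values log2(CPM + 1) was computed and entered in limma 3.58.1 (R 4.3.3), using lmFit and eBayes with trend, without covariates. Members below the filter were compared by exact permutation. Fold changes are on the log2(CPM + 1) scale and understate the change of low genes. Precision is limited by 4 samples per genotype and, under a few CPM, by read number. Alternatives were other pseudocounts, filters, scalings and limits, arrayWeights, eBayes without trend, a replicate block, and leaving out each sample. Genes named are the members and list genes past the threshold or with the highest or lowest fold change of a list. The 3 genes most like a member past the threshold are named too (predicted Gm and Rik genes left out). Jak2, Stat6, Jak1, Jak3, Tyk2, Ptpn6, Il4, Il13, Mrc1 and Clec10a were named after their values were seen. So were Irf4, F13a1, Klf4, Chil4, Slc7a2, Ch25h, the list genes below the filter and markers. Members and lists were chosen with earlier results of these data known. 1 gene of the list of other alternative activation genes is not reported here and was left out of that list's counts.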

Additional observations from a re-analysis of the deposited data

Results flagged for a closer look

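Of 38 groups of 4 samples (19 genes in each genotype), 5 held a sample that stood apart from the other 3 by more than Dixon's 95% critical value, the gap to the nearest sample over the group's range. For independent groups of normally distributed values, chance gives about 1 in 20 such groups. These groups share the same 8 libraries and some genes have few reads, so no excess over that rate is read from them. In 3 of the 5 the sample was WT replicate 3, at the high end. It had 6.58 CPM of Ccl24, where the next WT sample had 1.67 CPM. It had 2.31 CPM of Il4i1, with the next at 0.910 CPM, and 0.742 CPM of Retnla, with the next at 0.104 CPM. WT replicate 3 was also the shallowest library, and its part in these values was not tested. The other 2 were miR-21-/- replicate 4 at the low end. It had 686 CPM of Il4ra, where the other miR-21-/- samples had 820 CPM or more, still above every WT sample. It had 5.04 CPM of Mgl2, with the next at 5.88 CPM.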

How the results depend on the processing

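With 4 samples per genotype, and at most 133 reads a sample for Il4i1, Ccl22 and Ccl24, moderate changes of the low members could be missed. Members past the threshold numbered 1 as reported, 0 with no filter, 2 with an adjusted p limit of 0.05, and 1 to 2 when 1 sample was left out; the second was Mgl2, without WT replicate 4. Other alternative activation genes past the threshold numbered 3 as reported and 3 to 7 when 1 sample was left out. With an adjusted p limit of 0.05 they numbered 9, 5 higher and 4 lower. IL-4 and IL-13 signalling genes stayed at 2 or 3. All genes past the threshold numbered 986, and 685 to 1001 when 1 sample was left out. They numbered 452 with a pseudocount of 10, 515 with no filter, 1413 with an adjusted p limit of 0.05 and 1982 with no fold limit. As reported 400 were higher and 586 lower, against 491 and 337 with quantile normalization and 528 and 348 with the median of ratios as scaling. The counts were 251 and 201 with the pseudocount of 10, 270 and 245 with no filter, and 512 and 901 with the limit of 0.05. Rescaling moved the median log2 fold change of all genes from -0.10 to 0.0015 and that of Il4ra to 0.87; quantile normalization moved them to -0.0076 and 0.67. The sign turned for Ccl24 without WT replicate 4 (-0.090, in a range of -0.090 to 0.64 without 1 sample). For Ccl17 the log2 difference of 0.021 became -0.0018 without miR-21-/- replicate 3, and ranged from -0.0018 to 0.038 without 1 sample. At 0 to 2 reads a library, no direction is read from the Ccl17 values. Retnla's difference of 0.16 ranged from 0.0044 to 0.35 without 1 sample. A pseudocount of 0.1 gave 0.16 for Ccl17 and 0.81 for Retnla. The cause of these changes was not tested. Replicate numbers did not pair the samples (correlations of deviations 0.08, -0.11, -0.14 and 0.22), and they are not the numbers in the titles of the miR-21-/- samples. With the replicate number as a block, members past the threshold remained 1 (Il4ra, adjusted p = 3.80e-04), and 922 genes passed in all; Cd163 then passed as lower (-1.97, adjusted p = 0.00131). The highest row per symbol could not differ, since no symbol was repeated, and count tests were not run.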

Other observations

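Cd209a, which encodes a lectin of monocyte-derived and dendritic cells, was picked out after its values were seen. It had 1.77, 1.94, 5.79 and 0.996 CPM in WT and 1.16, 0.120, 0.0769 and 0.232 CPM in miR-21-/- samples, with a limma adjusted p of 0.0187, not past the threshold. Cd209a is among the 9 dendritic cell markers. Of these, Xcr1 and Clec9a had positive log2 fold changes (1.06 and 1.26) and the others negative ones. WT replicate 3 was the highest and WT replicate 4 the lowest WT sample for both Cd209a and Mgl2, while in the miR-21-/- samples Cd209a ranged from 0.0769 to 1.16 CPM and Mgl2 only from 5.04 to 5.99 CPM. Klf4, a transcription factor known to act with STAT6 in macrophages, had 37.3, 28.7, 66.0 and 46.2 CPM in WT and 26.6, 18.7, 18.1 and 14.3 CPM in miR-21-/- samples. Its groups did not overlap, and its log2 fold change of -1.13 had a limma adjusted p of 0.00535, just outside the limit of 0.005. It passed as lower with an adjusted p limit of 0.05, with arrayWeights, without WT replicate 2 and without miR-21-/- replicate 1.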
